A study of Mus musculus with 4 samples.

Results

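The genes described here are 10 regulators of pre-mRNA splicing: the Clk kinases Clk1, Clk2, Clk3 and Clk4, the Luc7-like proteins Luc7l, Luc7l2 and Luc7l3, the U1 snRNP protein gene Snrnp70, Leng8 and the SR protein gene Srsf3. They were chosen by name, for their function and for their FPKM in these same libraries, and each had 1 row among the 22558 gene symbols listed. Whole retinas of Fezf2 knockout (KO) mice, labelled Fezf2KO, and of wild-type control littermates, all of strain C57/BL/6J by their labels, gave RNA for sequencing on postnatal days 7 and 14, called P7 and P14. Fezf2 encodes a zinc-finger transcription factor, and the comparison addressed its role in retinal development. The groups were KO P7, control P7, KO P14 and control P14, with 1 library each. The labels state neither the design of the KO allele nor the number of animals behind a library. Levels were deposited as FPKM, a fragment count scaled by transcript length and by library size, each with a lower and an upper bound.

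Splicing removes introns from pre-mRNA in the nucleus. The U1 snRNP, of which Snrnp70 encodes the 70 kDa protein, recognises the 5′ splice site, and Luc7-like proteins bind U1 and influence which 5′ splice sites it uses. SR proteins such as Srsf3 promote exon recognition, and Clk kinases phosphorylate SR proteins and release them from nuclear speckles. Many of these genes control their own output: transcripts that keep an intron or include a premature stop codon stay in the nucleus or are degraded, and in mammalian cells Clk1 and Clk4 are known for such detained introns. Leng8 encodes a nuclear protein with a PCI domain, related to yeast Sac3 and Thp3.

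Fezf2 was at 0.592 FPKM (KO) and 8.32 FPKM (control) at P7, and at 0.126 FPKM (KO) and 4.02 FPKM (control) at P14. The 4 Mueller glia markers, which mark the main glial cell of the retina, summed to 430 FPKM (KO) and 444 FPKM (control) at P7 and to 1572 FPKM (KO) and 1509 FPKM (control) at P14, with none at 0. Summed markers of other tissues differed between the libraries. The 5 erythroid markers summed to 339 FPKM (KO) and 291 FPKM (control) at P7, and to 356 FPKM (KO) and 1180 FPKM (control) at P14. The 5 lens markers summed to 6.57 FPKM (KO) and 1.14 FPKM (control) at P7, and to 0.933 FPKM (KO) and 6.44 FPKM (control) at P14, with Crygs at 0 in the control P7 and KO P14 libraries. Of 6 immediate early genes, 1 was higher with bounds apart in the KO library at P7 and 6 were at P14, with sums of 104 FPKM (KO) and 50.4 FPKM (control) at P14. Of 6 bipolar cell markers, 2 were lower and 2 higher in the KO at P7 and 4 were lower at P14. Their sums were 470 FPKM (KO) and 473 FPKM (control) at P7, and 259 FPKM (KO) and 315 FPKM (control) at P14. The bipolar markers Grm6 and Trpm1 and the amacrine marker Gad1 were lower in the KO with bounds apart at both ages. The rod marker Sag, the cone markers Opn1sw and Pde6h and the ganglion cell marker Pou4f1 were higher with bounds apart at both ages. Other markers of these lists went the other way. Of 6 rod markers, 2 were lower (Gnat1 and Pde6b) and 1 higher at P7, and 5 were higher at P14. Of 5 cone markers, 2 were higher at P7, and 2 were lower (Arr3 and Gnat2) and 2 higher at P14. Over all genes 6.10% were lower and 7.34% higher at P7, and 8.24% were lower and 7.45% higher at P14. The part of these differences in the results below was not tested. In whole tissue, fewer cells of a type and less RNA per cell cannot be told apart.

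In the KO retina 4 of the 10 genes were lower at both ages with bounds that did not overlap: Leng8, Snrnp70, Luc7l3 and Clk1. Clk2 was lower beyond its bounds at P7 and Clk4 at P14, while the bounds of Clk3, Luc7l, Luc7l2 and Srsf3 overlapped between the genotypes at both ages. None of the 10 was higher with bounds apart at either age. Bounds cover counting error within a library, and there is 1 library per genotype at each age. The 10 genes were chosen on these genotype differences, which are therefore given as a description without a test. The counts of genes lower in the KO were 5 of 10 at P7 and 5 of 10 at P14, where 6.10% of 12665 genes were lower and 7.34% higher at P7, and 8.24% of 12804 genes were lower and 7.45% higher at P14. At both ages 1.42% of 12223 genes were lower and 1.5% higher in the KO. Because these differences took part in the choice of the 10 genes, nothing is read from the contrast with those shares. The median log2 difference of the 10 genes, after adding 1 FPKM to each value, was -0.23 at P7 and -0.23 at P14, against 0.01 and 0.00 for all genes.

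**Figure D1:**
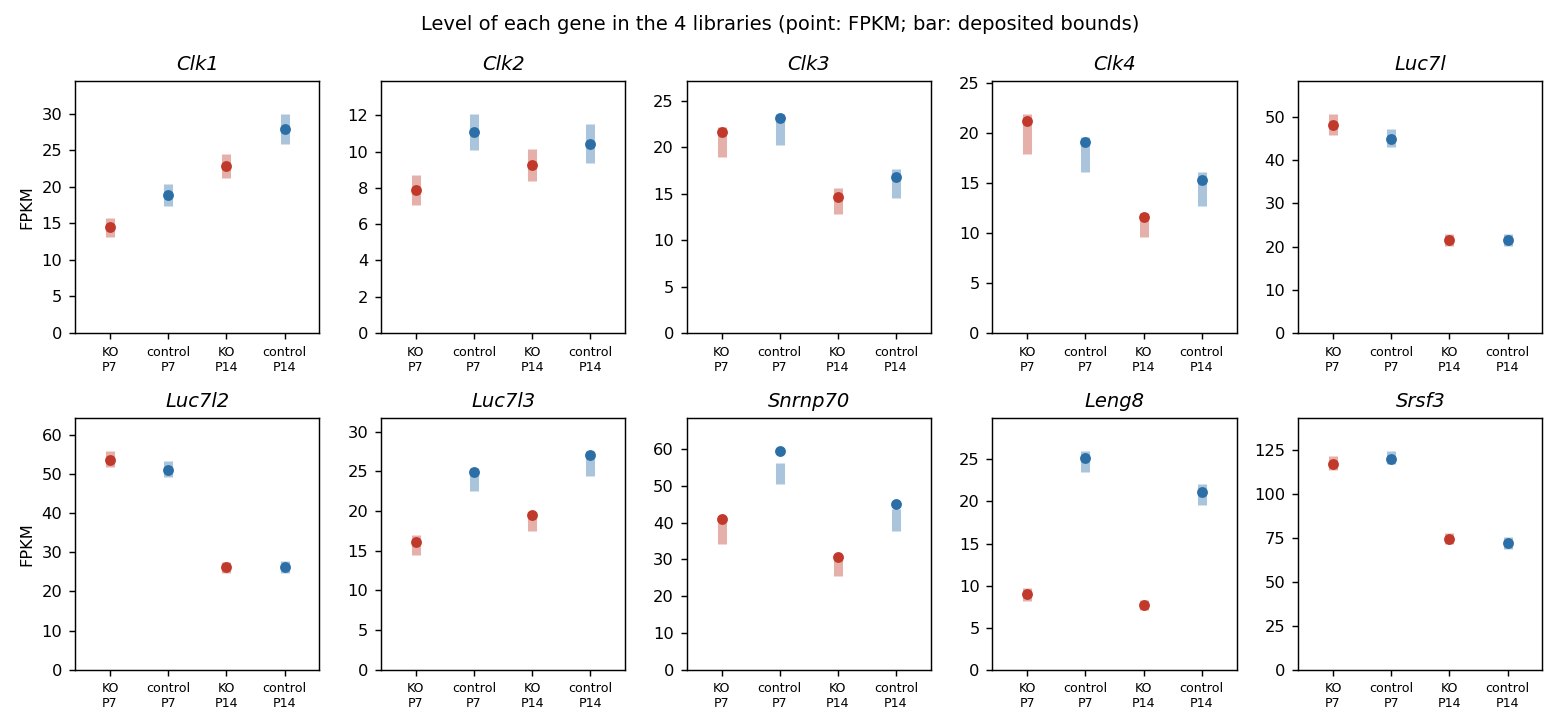
Level in FPKM (vertical axis, from 0) of each of the 10 genes in the KO P7, control P7, KO P14 and control P14 libraries, 1 library each. Points are the deposited FPKM and shaded bars run from the lower to the upper bound; the KO point of Leng8 lies at 35.7% of the control point at P7 and at 36.6% at P14, and the bars of Luc7l2 and Srsf3 overlap between KO and control at both ages.

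Leng8 had the largest genotype difference of the 10. Its locus spans chr7:4088658-4099775 in the mm9 build, and it was at 9.005 FPKM in KO retina at P7 (bounds 8.22 to 9.73) against 25.2 FPKM in control retina (bounds 23.5 to 26.0). At P14 its level was 7.74 FPKM in KO retina (bounds 7.05 to 8.34) against 21.1 FPKM in control retina (bounds 19.6 to 22.1). The bounds of Leng8 did not overlap between the KO and control library at either age. Leng8 in the KO thus stood at 35.7% of its control at P7 (log2 difference -1.39) and at 36.6% at P14 (-1.34). By these differences Leng8 stood 13th from the lowest of 12665 genes at P7 and 18th of 12804 at P14. The neighbouring gene Leng9, whose transcripts share 3.99% of the 36-base words of Leng8, was at 3.18 FPKM (KO) and 3.95 FPKM (control) at P7 and at 7.36 FPKM (KO) and 6.78 FPKM (control) at P14.

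Snrnp70 (chr7:52631824-52651017) and Luc7l3 (chr11:94152453-94183225), both tied to U1 snRNP function, came next. Snrnp70 was at 40.9 FPKM (KO) and 59.6 FPKM (control) at P7, and at 30.5 FPKM (KO) and 45.1 FPKM (control) at P14. Both KO libraries were lower, at 68.6% of control at P7 (log2 difference -0.53) and 67.7% at P14 (-0.55). In each of the 4 libraries the FPKM of Snrnp70 lay above its own upper bound (39.9 FPKM (KO) and 56.2 FPKM (control) at P7, 29.9 FPKM (KO) and 43.8 FPKM (control) at P14), so its bounds are compared only with each other. Luc7l3 was at 16.1 FPKM (KO) and 24.9 FPKM (control) at P7 (bounds 14.4 to 16.9 in KO, 22.5 to 25.4 in control) and at 19.5 FPKM (KO) and 27.1 FPKM (control) at P14 (bounds 17.5 to 19.8 in KO, 24.4 to 27.6 in control). The log2 differences of Luc7l3 were -0.60 at P7 and -0.46 at P14.

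The other members of the Luc7 family had overlapping bounds between the genotypes at both ages. Luc7l (chr17:26389855-26422451) was at 48.1 FPKM (KO) and 44.8 FPKM (control) at P7 and at 21.5 FPKM (KO) and 21.6 FPKM (control) at P14. Luc7l2 (chr6:38501444-38559470) was at 53.5 FPKM (KO) and 51.1 FPKM (control) at P7, and at 26.1 FPKM in both at P14. At P14 the log2 differences of Luc7l and Luc7l2 were 0.00 and 0.00, and the bounds placed the KO level of Luc7l2 between 89.6% and 111% of the control level. Luc7l3 therefore made up 13.7% of the summed FPKM of the 3 Luc7 genes in the KO and 20.6% in the control library at P7, and 29.0% in the KO and 36.2% in the control library at P14. FPKM is scaled by length, so these shares compare the genes on a per-length scale.

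The 4 Clk kinases differed from each other. Clk1 (chr1:58468832-58480932) was at 14.4 FPKM in the KO (bounds 13.1 to 15.8) and 18.9 FPKM in the control library (bounds 17.4 to 20.4) at P7. At P14 Clk1 was at 22.8 FPKM in the KO (bounds 21.2 to 24.5) and 27.9 FPKM in the control library (bounds 25.9 to 30.0). Its KO level was lower at both ages, at 76.3% and 81.9% of the control level. Clk2 (chr3:88968727-88981009) was at 7.88 FPKM (KO) and 11.1 FPKM (control) at P7, with bounds apart, and at 9.26 FPKM (KO) and 10.4 FPKM (control) at P14, with overlapping bounds. Clk4 (chr11:51076673-51095266) was at 21.2 FPKM (KO) and 19.1 FPKM (control) at P7, where the bounds overlapped, but at 11.6 FPKM in the KO (bounds 9.66 to 12) and 15.3 FPKM in the control library (bounds 12.7 to 16.2) at P14. Its log2 differences were thus 0.15 at P7 and -0.37 at P14. Clk3 (chr9:57598518-57613667) was at 21.6 FPKM (KO) and 23.1 FPKM (control) at P7 and at 14.7 FPKM (KO) and 16.8 FPKM (control) at P14, with bounds that overlapped at both ages.

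Srsf3 (chr17:29169605-29180317), a small SR protein that also takes part in mRNA export, had the highest level of the 10 genes in every library and the smallest P7 difference. It was at 117 FPKM (KO) and 120 FPKM (control) at P7 and at 74.4 FPKM (KO) and 72.3 FPKM (control) at P14. The bounds placed its KO level between 91.4% and 104% of the control level at P7 and between 94.2% and 113% at P14. With a further requirement of at least 1.5-fold on the log2 scale, Leng8 and Luc7l3 remained at P7 and Leng8 alone at P14 and at both ages.

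Depth was not read from counts here, and the deposited bounds give the counting error. Averaged over the upper and lower side, they spanned from 3.15% of the level, for Srsf3 (control P7), to 11.4%, for Clk4 (control P14). The bounds are not centred on the level, and those of Snrnp70 lay below it. Reads of 36 bases were sequenced without a stated strand, so members with sequence in common with other genes are less certain. In the GENCODE M21 transcripts of GRCm38, protein-coding transcripts of Clk1, Clk2, Clk4 and Snrnp70 shared no 36-base word on either strand with another gene. Clk3 shared 33.0% of its words, mostly with the opposite-strand gene Edc3, Srsf3 shared 35.9%, mostly with pseudogenes, and Luc7l2 shared 17.3%. Edc3 was at 17.4 FPKM (KO) and 17.7 FPKM (control) at P7 and at 11.3 FPKM (KO) and 9.86 FPKM (control) at P14. The authors' gene models are not used here, so how reads from such stretches were assigned was not tested. GENCODE lists retained-intron transcripts for all 10 genes, with a median of 4 per gene, whereas 58.6% of 11143 protein-coding genes with a mean of 1 FPKM or more have any and their median is 1. Snrnp70 has 9, Clk1 and Clk4 have 7 each, and Leng8 has 3. Retained introns were among the reasons for choosing these genes, and the deposited gene levels do not separate such transcripts from spliced ones.

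Promoter windows are shown for the genes lower at both ages that have one in the RefSeq table, and for Srsf3, whose level was nearly the same in both genotypes. The table matched 8 of the 10 genes with 9 windows, and Clk1 and Luc7l have no entry. Each sequence is the 250 bases before the transcription start in GRCm38.p6, a build other than that of the files, read 5′ to 3′ on the gene's strand. Capitals mark matches on either strand to 5 motifs: ETS (CCGGAAGT), CRE (TGACGTCA), NRF1 (GCGCATGC), SP1 (GGGCGG) and TATA box (TATAAA). Leng8 has windows at chr7:4136806-4137055 and chr7:4137230-4137479 (plus strand), Luc7l3 at chr11:94321964-94322213 (minus strand), Snrnp70 at chr7:45395743-45395992 (minus strand) and Srsf3 at chr17:29032410-29032659 (plus strand).
Leng8 first start: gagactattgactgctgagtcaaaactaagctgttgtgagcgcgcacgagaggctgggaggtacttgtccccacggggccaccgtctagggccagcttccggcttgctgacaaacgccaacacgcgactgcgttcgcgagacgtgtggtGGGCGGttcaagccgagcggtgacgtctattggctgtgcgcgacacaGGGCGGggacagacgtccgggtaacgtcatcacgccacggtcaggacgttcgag
Leng8 second start: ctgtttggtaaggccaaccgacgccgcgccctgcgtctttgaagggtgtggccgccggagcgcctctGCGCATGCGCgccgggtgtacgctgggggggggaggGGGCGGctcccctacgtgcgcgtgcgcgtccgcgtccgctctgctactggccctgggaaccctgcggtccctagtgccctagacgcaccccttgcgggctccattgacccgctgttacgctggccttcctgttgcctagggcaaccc
Luc7l3: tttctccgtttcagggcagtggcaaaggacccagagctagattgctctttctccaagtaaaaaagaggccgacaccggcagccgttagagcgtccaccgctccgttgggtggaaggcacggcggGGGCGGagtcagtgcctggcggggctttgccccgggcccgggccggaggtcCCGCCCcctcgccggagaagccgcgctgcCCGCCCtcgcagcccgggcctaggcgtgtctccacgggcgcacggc
Snrnp70: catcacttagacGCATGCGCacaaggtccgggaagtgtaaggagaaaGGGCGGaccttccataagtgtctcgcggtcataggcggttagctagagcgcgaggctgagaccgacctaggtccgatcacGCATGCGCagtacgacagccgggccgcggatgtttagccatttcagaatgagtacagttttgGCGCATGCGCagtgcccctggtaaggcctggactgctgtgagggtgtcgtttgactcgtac
Srsf3: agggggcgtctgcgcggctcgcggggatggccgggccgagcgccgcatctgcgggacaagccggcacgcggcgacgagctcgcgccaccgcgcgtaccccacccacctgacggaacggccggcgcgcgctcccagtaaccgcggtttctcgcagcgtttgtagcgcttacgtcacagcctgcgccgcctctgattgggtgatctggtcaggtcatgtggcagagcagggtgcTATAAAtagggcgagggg
The NRF1 letters were found in the windows of Snrnp70, at 3 places, and Leng8, at 1 place before its second start, and in no other of the 8 genes. The motif and its reverse complement overlap within GCGCATGCGC, which was counted as 1 place. Of the windows of genes with a mean of 1 FPKM or more, 4.21% of 11555 hold these letters, and 2.26% of all 32851 windows do. SP1 letters were in 6 of 8 genes and 57.9% of the expressed windows, CRE letters in Clk4 and 2.66%, TATA letters in Srsf3 and 6.38%, and ETS letters in 0 of 8 genes and 5.54%. A match here describes letters in a window and not binding of a factor.

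**Figure D2:**
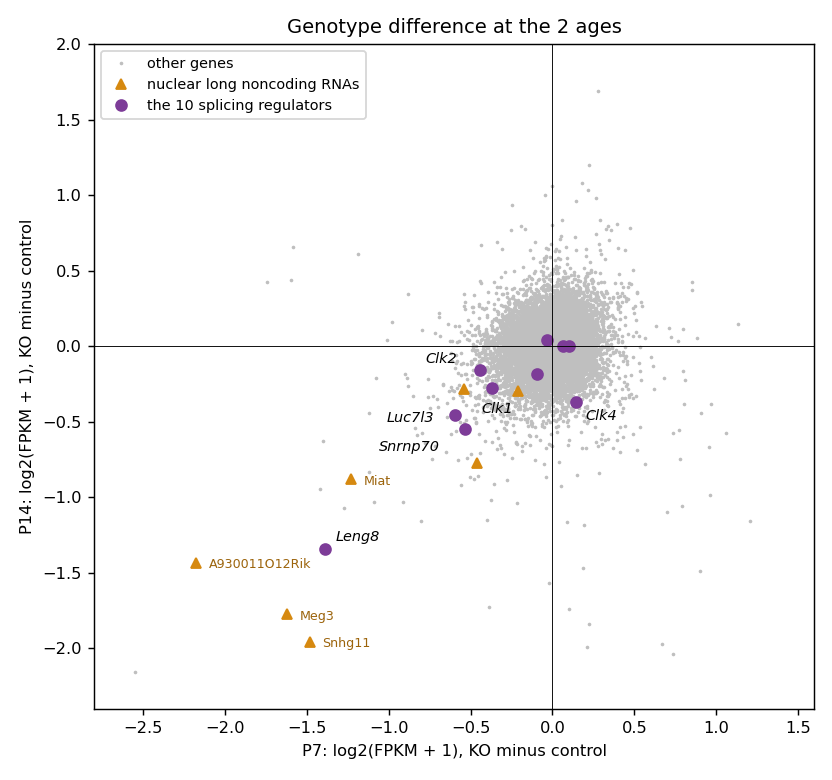
Difference in log2(FPKM + 1), KO minus control, at P7 (horizontal axis) and at P14 (vertical axis) for 12223 genes with 1 FPKM or more at each age; 8 genes lie outside the axes. Circles are the 10 splicing regulators, triangles the nuclear long noncoding RNAs of a list, and grey points all other genes; Leng8, at -1.39 and -1.34, lies among the noncoding RNAs Miat, Meg3 and A930011O12Rik.

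The genes nearest to Leng8 in their pattern over the 4 libraries were sought by the root mean square distance between profiles of log2(FPKM + 1), each minus its own mean, among 11459 other genes with a mean of 2 FPKM or more and 1 locus. They were 6720401G13Rik (distance 0.11), the imprinted noncoding RNA Meg3 (0.18), the readthrough locus Lrch4-sap25 (0.21), the X-inactivation RNA Xist (0.34) and Rnpc3 (0.35), which encodes a protein of the minor spliceosome. 6720401G13Rik was at 2.59 FPKM (KO) and 7.66 FPKM (control) at P7 and at 2.1 FPKM (KO) and 5.51 FPKM (control) at P14. Rnpc3 was at 3.90 FPKM (KO) and 6.20 FPKM (control) at P7 and at 3.35 FPKM (KO) and 7.25 FPKM (control) at P14. Xist was at 15.65 FPKM (KO) and 27.55 FPKM (control) at P7 and at 15.61 FPKM (KO) and 24.92 FPKM (control) at P14. Whether the sex of the animals differed between the libraries was not tested. Among the 10 genes, Snrnp70 ranked 13th (distance 0.42) and Luc7l3 22nd (0.47) in nearness to Leng8, and Luc7l ranked 9084th (0.83). In nearness to Snrnp70 and to Luc7l3, Leng8 ranked 7027th and 7842nd of 11459. The 10 genes were chosen on their genotype differences, so nothing is read from these ranks. Among the nearest to Clk1 were Elavl2, which encodes a neuronal RNA-binding protein (distance 0.02), Tmem126b and the gene of the RNA-binding protein TDP-43, Tardbp (both 0.04), and Lrrtm2 (0.04). Tardbp was at 9.86 FPKM (KO) and 12.4 FPKM (control) at P7 and at 16.3 FPKM (KO) and 19.5 FPKM (control) at P14. Nearest to Luc7l3 were 2810008D09Rik (0.05), Miip (0.06), Gm14378 (0.06), 6720456H20Rik (0.07) and Tmem181b-ps (0.07). Each profile has 4 points, so these distances are descriptions.

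Of 9 nuclear long noncoding RNAs, 6 were lower in the KO at both ages with bounds apart and 0 were higher, where 1.42% of all genes were lower and 1.5% higher at both ages. This list too was chosen with these differences known. Its median log2 differences were -1.23 over the 7 with a mean of 1 FPKM or more at P7 and -0.83 over 8 at P14. Among the most and least changed of them, A930011O12Rik was at 12.2 FPKM (KO) and 58.8 FPKM (control) at P7 and at 31.4 FPKM (KO) and 86.5 FPKM (control) at P14, Snhg11 at 4.08 FPKM (KO) and 13.2 FPKM (control) at P7 and 6.31 FPKM (KO) and 27.4 FPKM (control) at P14, Malat1 at 11.8 FPKM (KO) and 17.6 FPKM (control) at P7 and 19.5 FPKM (KO) and 24.0 FPKM (control) at P14, and Rian at 27.9 FPKM (KO) and 32.4 FPKM (control) at P7 and 18.0 FPKM (KO) and 22.4 FPKM (control) at P14.

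Genes of other splicing lists are given next. Among 15 measured proteins of nuclear speckles and with RS domains, 7 were lower and 1 higher in the KO with bounds apart at P7 (median log2 difference -0.14). The shares of all genes were 6.10% lower and 7.34% higher. At P14, 5 were lower and 2 higher (median -0.10), against 8.24% and 7.45% of all genes. Srrm2, which encodes a speckle scaffold protein, Sfrs18 (now Pnisr), Nktr and Zranb2 were lower at both ages. Sfrs18 was at 13.7 FPKM (KO) and 16.1 FPKM (control) at P7 and at 7.35 FPKM (KO) and 16.1 FPKM (control) at P14, and Zranb2, which encodes a zinc-finger splicing factor, was at 10.4 FPKM (KO) and 14.7 FPKM (control) at P7 and 20.5 FPKM (KO) and 27.9 FPKM (control) at P14. Among genes of this list with bounds apart at either age, Acin1 and Rbm39 had the highest mean differences, with log2 differences of -0.06 at P7 and 0.14 at P14 for Acin1 and 0.18 and 0.10 for Rbm39. Srrm1 and Bclaf1 of this list, and Srsf5 of the SR proteins, are listed with a failed estimate in at least 1 library and were left out.

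**Figure D3:**
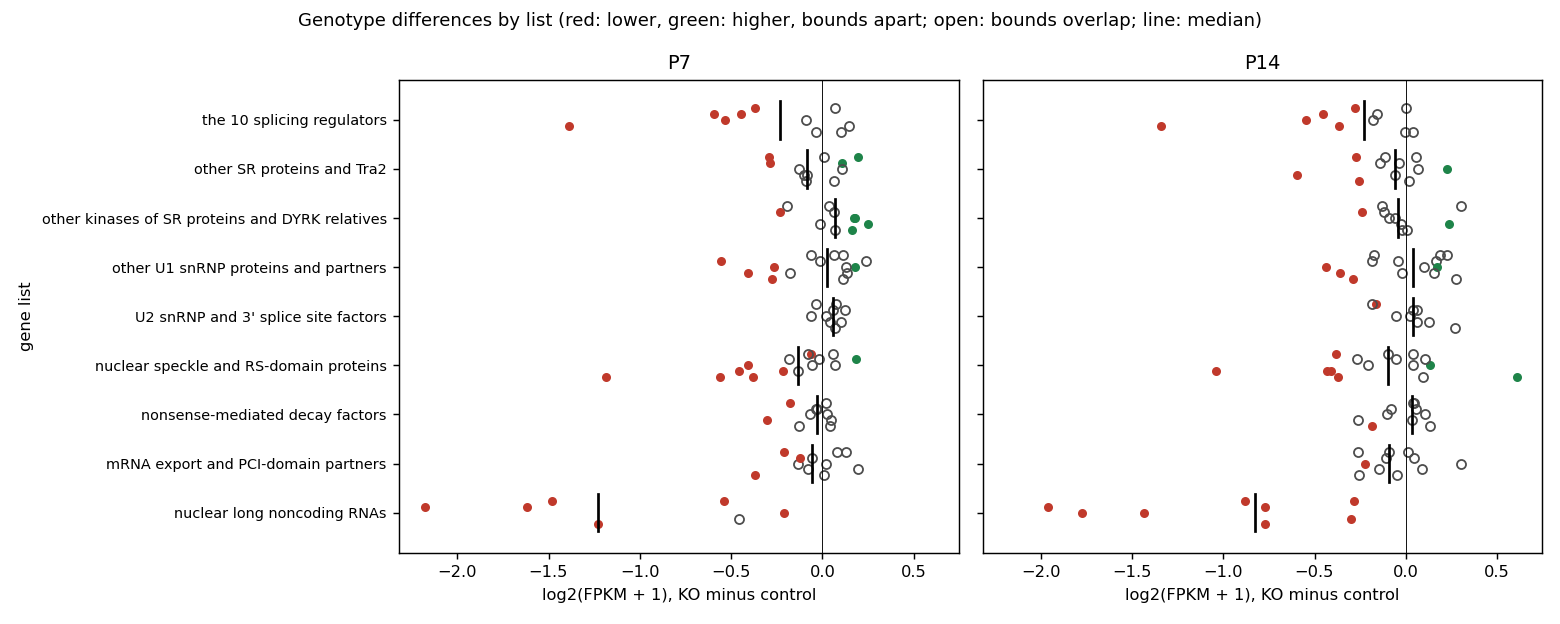
Difference in log2(FPKM + 1), KO minus control, at P7 (left) and P14 (right) for each gene with a mean of 1 FPKM or more in 9 lists. Red and green points are genes lower and higher in the KO with bounds apart, open points have overlapping bounds, and vertical lines are medians; the median of the 10 splicing regulators is -0.23 in both panels and that of the U2 snRNP list is 0.06 and 0.04.

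Next to Snrnp70 stand the other U1 snRNP proteins and their partners. Of these 14 genes, 4 were lower and 1 higher in the KO with bounds apart at P7, against 6.10% and 7.34% of all genes. At P14, 3 were lower and 1 higher, against 8.24% and 7.45%. The medians were 0.03 at P7 and 0.04 at P14. The lower ones were partners: Tia1 and Tial1, which encode RNA-binding proteins that recruit U1 to weak 5′ splice sites, and Prpf39 at both ages, and Prpf40b at P7. Tial1 was at 8.02 FPKM (KO) and 11.0 FPKM (control) at P7 and at 11.5 FPKM (KO) and 15.0 FPKM (control) at P14, and Tia1 at 15.4 FPKM (KO) and 18.7 FPKM (control) at P7 and 7.17 FPKM (KO) and 10.1 FPKM (control) at P14. Prpf39 was at 7.99 FPKM (KO) and 9.89 FPKM (control) at P7 and at 6.78 FPKM (KO) and 8.51 FPKM (control) at P14. The Sm protein gene Snrpb, in contrast, was higher, at 188 FPKM (KO) and 166 FPKM (control) at P7 and 149 FPKM (KO) and 132 FPKM (control) at P14, and the U1 genes Snrpa and Snrpc had overlapping bounds at both ages. The FPKM of Snrpb lay above its own upper bound in all 4 libraries.

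Among the 11 other SR proteins and Tra2 genes with a level, 2 were lower and 2 higher in the KO with bounds apart at P7. The shares of all genes were 6.10% lower and 7.34% higher. At P14, 3 were lower and 1 higher, against 8.24% and 7.45% of all genes. Srsf1, which encodes the SR protein SF2/ASF, was lower at both ages, at 36.3 FPKM (KO) and 44.6 FPKM (control) at P7 and at 23.6 FPKM (KO) and 28.7 FPKM (control) at P14. Srsf6 was at 65.7 FPKM (KO) and 70.5 FPKM (control) at P7 and, with bounds apart, at 11.8 FPKM (KO) and 18.3 FPKM (control) at P14. Srsf4 was at 90.6 FPKM (KO) and 84.1 FPKM (control) at P7 and, with bounds apart, at 65.2 FPKM (KO) and 55.7 FPKM (control) at P14, and Tra2b was higher at P7 (log2 difference 0.20) with overlapping bounds at P14 (0.05).

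The other kinases that act on SR proteins and their DYRK relatives had medians near 0. Of 11 genes 10 were measured, Srpk3 being under 1 FPKM. With bounds apart, 1 was lower and 4 higher in the KO at P7, against 6.10% and 7.34% of all genes. At P14, 1 was lower and 1 higher, against 8.24% and 7.45%. The medians were 0.07 at P7 and -0.04 at P14. Prpf4b, a kinase of the spliceosome, was at 21.9 FPKM (KO) and 25.9 FPKM (control) at P7, and Srpk2, a cytoplasmic SR protein kinase, was at 23.7 FPKM (KO) and 28.2 FPKM (control) at P14, both with bounds apart. Hipk2 was higher at P7 (0.25) and Dyrk1b at P14 (0.24).

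In the U2 snRNP and 3′ splice site list 0 of 9 genes had bounds apart at P7 and 1 was lower at P14. Over all genes 6.10% were lower and 7.34% higher at P7, and 8.24% lower and 7.45% higher at P14. The U2 gene lower at P14 was Sf3b1, at 24.0 FPKM (KO) and 27.0 FPKM (control). Of 10 nonsense-mediated decay factors, which degrade transcripts with premature stop codons, 2 were lower with bounds apart at P7 and 1 at P14, and 0 were higher. Upf1 (-0.18) and Upf3b (-0.30) were lower at P7 and Smg1 (-0.18) at P14. Of 11 mRNA export factors and PCI-domain partners, 3 were lower at P7 and 1 at P14, and 0 were higher. Thoc1 (-0.37), Thoc2 (-0.21) and Ddx39b (-0.12) were lower at P7 and Eny2 (-0.23) at P14. Pcid2, which encodes a PCI-domain protein, was at 20.8 FPKM (KO) and 18.9 FPKM (control) at P7 and at 13.6 FPKM (KO) and 13.5 FPKM (control) at P14.

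Most of the 10 genes also differed between the P7 and P14 libraries, as most measured genes did. Age was tested with limma on all 4 libraries, adjusting for genotype, with Benjamini-Hochberg adjustment over 13057 genes. The test called 1 of the 10 genes higher and 6 lower at P14 than at P7 at an adjusted p under 0.05. Over all genes it called 28.9% higher and 38.9% lower. With 1 residual degree of freedom, the variance came mostly from the trend over all genes (prior degrees of freedom 5.09), so its p-values are less certain than those of a replicated design. That residual is the change of the genotype difference between ages, so the p-values do not measure the spread between animals. Each age has 1 KO and 1 control library, so age cannot be told apart from other differences between the P7 and P14 libraries. The 10 genes were chosen with their FPKM at both ages known, so these p-values describe them and are not independent support. By bounds apart, 2 of the 10 genes (Clk1 and Luc7l3) were higher and 6 lower at P14 in the KO, where 29.0% and 39.4% of 13044 genes were, and 1 (Clk1) was higher and 6 lower in the control, where 27.6% and 37.7% of 13112 genes were.

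Luc7l and Luc7l2 fell the most with age. Luc7l was at 21.5 FPKM at P14 and 48.1 FPKM at P7 in the KO, and at 21.6 FPKM at P14 and 44.8 FPKM at P7 in the control, a limma log2 difference of -1.07 ± 0.08 (SE; adjusted p = 0.000104). Luc7l2 was at 26.1 FPKM at P14 and 53.5 FPKM at P7 in the KO, and at 26.1 FPKM at P14 and 51.1 FPKM at P7 in the control (-0.97 ± 0.07, limma adjusted p = 0.000124). Srsf3 (-0.69, adjusted p = 0.000323), Clk3 (-0.48, adjusted p = 0.00258) and Snrnp70 (-0.40, adjusted p = 0.00308) also fell in the limma fit. Clk1 was the gene called higher by limma, with levels of 22.8 FPKM at P14 and 14.4 FPKM at P7 in the KO and 27.9 FPKM at P14 and 18.9 FPKM at P7 in the control (0.58 ± 0.08, limma adjusted p = 0.00114). Its share of the summed FPKM of the 4 Clk genes was 39.1% at P14 and 22.2% at P7 in the KO and 39.6% at P14 and 26.2% at P7 in the control. Clk4 fell in the limma fit (-0.56 ± 0.13, adjusted p = 0.0101), though not with low genes kept in the fit (adjusted p = 0.0659). The differences of Luc7l3 (0.19, limma adjusted p = 0.0884), Leng8 (-0.22, adjusted p = 0.0583) and Clk2 (0.06, adjusted p = 0.617) did not pass, and that of Leng8 passed with small RNAs left out (0.0472) and on a TPM scale (-0.31, 0.0214). The genes lower by bounds differed between the genotypes. Clk4 was lower at P14 in the KO (-0.81) but overlapped in the control (-0.30). Leng8 was lower in the control (-0.24) but overlapped in the KO (-0.19).

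**Figure D4:**
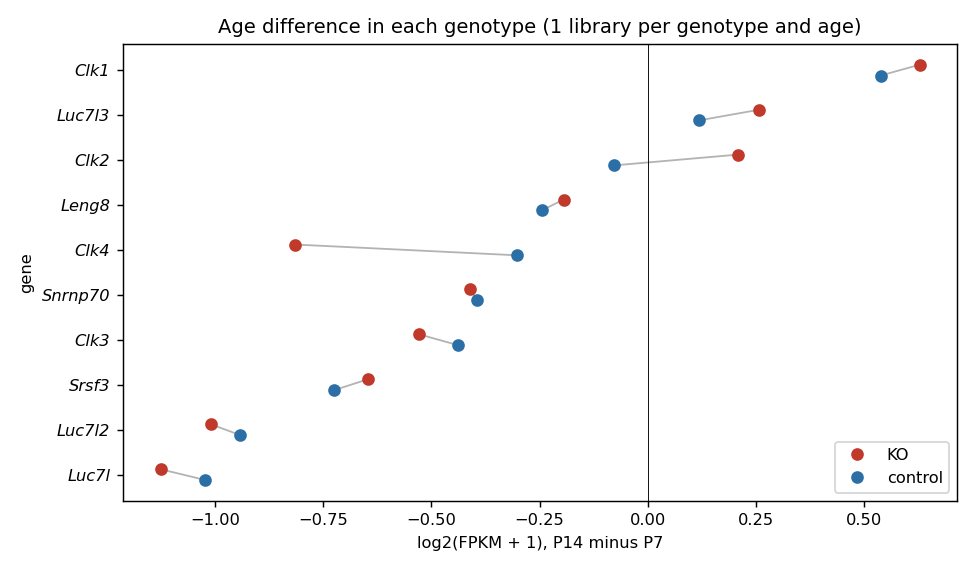
Difference in log2(FPKM + 1), P14 minus P7, in KO (red) and control (blue) retina for each of the 10 genes, ordered by the control value; each point compares 1 library with another. Luc7l and Luc7l2 lie near -1 in both genotypes and Clk1 above 0.5, and Clk4 has the widest gap between genotypes, at -0.81 in the KO and -0.30 in the control.

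The order of levels changed with these differences. In the control library at P7 the order by FPKM was Srsf3, Snrnp70, Luc7l2, Luc7l, Leng8, Luc7l3, Clk3, Clk4, Clk1 and Clk2, and the bounds overlapped between Snrnp70 and Luc7l2, between Leng8, Luc7l3 and Clk3 taken in turn, and between Clk4 and Clk1. In the KO library at P7 Leng8 stood at rank 9, with bounds that overlapped those of Clk2. At P14 Leng8 was the lowest of the 10 in the KO library, below Clk2 with bounds apart, and at rank 7 in the control library, where its bounds overlapped those of Luc7l. Clk1 was at rank 4 at P14 in the KO library and at rank 3 in the control library.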

How the data were processed

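Whole-retina RNA of 4 libraries was read as 36-base single ends from randomly primed cDNA, per the labels' protocols. Per the submitters' processing notes, CASAVA 1.8.2, TopHat2 2.0.8b, Cufflinks 2.1.1 and the mm9 build were used; options and annotation are unstated in the sources used. The authors deposited FPKM, its confidence bounds and an estimation status for each locus, per the file headers; read counts were not used here, and depth shows only through the bounds. Rows of a symbol were summed (251 symbols at several loci), and 16 symbols with a failed estimate were left out. The shares of all genes by bounds also leave out 740 symbols of small RNAs or loci under 300 bases. These shares cover genes at 1 FPKM or more in either library compared. The limma shares cover the 13057 genes of the fit, small RNAs and short loci included. List counts and medians cover genes whose mean over both libraries compared is 1 FPKM or more. Differences are of log2(FPKM + 1), a scale that shrinks changes of low genes. A gene was called where bounds did not overlap. The FPKM lay above its own upper bound at 2080 (KO P7), 2176 (control P7), 2243 (KO P14) and 1809 (control P14) of 23021 loci. For such genes, among them Snrnp70, Snrpb, Srsf4, Tra2b and Rbm39, bounds are compared only with each other and calls are less certain. The age term was tested with limma 3.58.1 (R 4.3.3, variance trend) on genes reaching 1 FPKM in 2 or more libraries, and was checked on simulated data. Named genes were the 10 members, Fezf2, up to 4 per list (the 2 highest and 2 lowest mean differences with bounds apart at either age) and the 5 nearest profiles of Leng8, Clk1 and Luc7l3. A named gene of this rule is not reported here. Older symbols were matched through RefSeq synonyms. Members and lists were chosen with earlier results of these data known. Alternatives were a pseudocount of 0.1 FPKM, a TPM scale, centring, a 1.5-fold minimum, the highest row per symbol, small RNAs left out of the limma fit, and no filter.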

Additional observations from a re-analysis of the deposited data

Results flagged for a closer look

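Clk4 differed between the genotypes in opposite directions at the 2 ages: its log2 difference, KO minus control, was -0.37 at P14, with bounds apart, and 0.15 at P7, with overlapping bounds. The change between the ages was -0.51. With 1 library per genotype and age this difference between ages was not tested.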

How the results depend on the processing

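Of 120 values of single genes under an alternative, 116 were kept, and of 76 counts and medians 68 stayed close. A genotype difference was kept where its shift lay within the counting error given by the bounds. An age difference was kept where its direction and its side of the threshold stayed. The limma adjusted p-values still moved with the genes in the fit. For each of the 10 genes they were lower with small RNAs left out and higher with no filter on low values. That of Luc7l was 2.52e-07 and 0.00659 in these 2 limma fits. Each of the 10 genes has 1 row, so the highest row per symbol could not change its genotype difference. The counts by bounds could not change with a pseudocount or centring, which do not enter the bounds. With a minimum of 1.5-fold, 2 genes were lower in the KO at P7 (Luc7l3 and Leng8), 1 at P14 and 1 at both ages (Leng8), because the other differences are smaller than that. The median of the nuclear long noncoding RNAs at P7 became -1.39 with a pseudocount of 0.1 FPKM, -1.36 on a TPM scale and -0.54 without a filter; at P14 it became -1.29 and -1.11 under the first 2 of these. Larger values there follow from the lower weight of the added constant and the lower median from adding genes under 1 FPKM. The age difference of Clk2, not called, turned from 0.06 to -0.0068 on a TPM scale. That scale multiplied FPKM by 2.54 (KO) and 2.58 (control) at P7 and by 2.39 (KO) and 2.45 (control) at P14. It thus lowers P14 values relative to P7 values. A TPM scale moved the median age difference of all genes to -0.17, against -0.09 in FPKM. Counts of genes lower in the KO were 5 at P7, 5 at P14 and 4 at both ages on a TPM scale too. The labels give no replicate numbers, so no replicate block was fitted; the age fit adjusts for genotype. Depth limits the comparison of Clk4, Clk2 and Clk3, whose bounds are the widest among the 10, and the lack of replicates limits every difference between genotypes.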

Other observations

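D4Wsu53e (now Rsrp1), a gene of the nuclear speckle list singled out after its values were seen, was at 16.6 FPKM (KO) and 38.9 FPKM (control) at P7 but at 104 FPKM (KO) and 67.9 FPKM (control) at P14, with bounds apart at both ages. In the control P7 library and both P14 libraries the FPKM of D4Wsu53e lay above its own upper bound. Arglu1 of the same list, singled out in the same way, was at 18.1 FPKM (KO) and 27.1 FPKM (control) at P7, with bounds apart, and at 29.1 FPKM (KO) and 27.2 FPKM (control) at P14, with overlapping bounds. The log2 differences of Leng8, Luc7l3 and Snrnp70 changed between the ages by 0.05, 0.14 and -0.01, and those of Clk2 and Clk4 by 0.29 and -0.51. All these genes were chosen with their differences known, so nothing is read from the contrast. Whether these differences between ages exceed the spread between animals was not tested.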
